A study of Homo sapiens with 18 samples.

Results

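HTOXAR3 is a subline of HT29, a line from a human colorectal adenocarcinoma, obtained by keeping HT29 under rising doses of oxaliplatin (OXA), a platinum drug that binds DNA. The comparison was of untreated HTOXAR3 with untreated HT29, and its members were the arrays with those sample titles, 3 for each line and 6 of the 18 arrays of the series. Both lines grew as monolayers in the same supplemented DMEM medium, and the cultures of neither group were treated with OXA or Curcumin for the experiment. The paper describes them as vehicle-treated in its results and as without treatment in its methods. It does not say how long HTOXAR3 had been free of OXA. The labels call the 3 arrays of a line biological replicates. HTOXAR3 is a single resistant subline, and the difference between it and HT29 holds every change since the lines were separated, whether or not it bears on OXA. The other 12 arrays are of the same lines after 24 h of OXA, alone or with 10 µM Curcumin, at 10 µM OXA for HT29 and 30 µM for HTOXAR3. They are used only to set the same line difference beside the untreated one.

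Cells of the large intestine arise from stem cells kept by Wnt signalling at the base of the crypt and mature into absorptive, mucus-secreting and hormone-secreting cells under transcription factors of the HNF, CDX and GATA families. Carcinoma lines keep parts of these programmes. A platinum drug enters and leaves cells partly through copper and organic cation carriers, and is bound in the cell by glutathione and metallothioneins, while carbonyl-reducing enzymes and transferases act on other drugs and on reactive aldehydes.

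Values are log2 intensities of 1 probe for each gene name, corrected for local background and quantile normalised, and a difference is HTOXAR3 minus HT29 on that scale. Where a probe was well above background in 1 line and on no array of the other, the fold is given as a lower bound (at least N-fold), the mean of the bright line against the dim line's mean of, for each array, the probe's own signal or, where that was smaller, the dimmest signal that was still well above background. A gene is called when the Benjamini-Yekutieli adjusted p of the limma fit over all 36204 gene names was below 0.05 and the fold change above 1.2. By this rule 4177 names (11.5%) differed between the untreated lines, 2267 (6.26%) higher and 1910 (5.28%) lower in HTOXAR3, and 1013 of them by a fitted difference of more than 2-fold. The spread behind these calls was estimated on all 18 arrays, and with the 6 untreated arrays alone 1258 names were called. The share of transcript spots well above background ran from 58.0% to 60.7% in HT29 and from 52.4% in HTOXAR3 replicate 2 to 62.2% in replicate 1. Log2 intensities of arrays of different lines correlated at up to 0.987 and those of the same line at no less than 0.984. The arrays lay on 3 slides, of which 2 held both lines and 1 held HT29 replicate 1 alone among the 6.

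Against the background of 11.5%, 71 of 244 lineage genes on the array (29.1%) were called, 28 higher and 43 lower, as were 58 of 218 adhesion genes (26.6%), 30 higher and 28 lower. Of the metabolic genes 72 of 288 (25%) were called, 40 higher and 32 lower, and of the drug-handling genes 91 of 291 (31.3%), 38 higher and 53 lower. Many names on the array lie below background, and among the 19818 names well above it on all 3 arrays of either line the called share was 20.6%. Of the members 141 lineage, 140 adhesion, 251 metabolic and 211 drug-handling genes were that bright. Among these the called shares were 48.2%, 40%, 28.7% and 41.7%. Over the single lists of these programmes the share of all members called ran from 15.6% (hormone-cell genes) to 53.6% (stem cell and Wnt target genes). Among bright members it ran from 19% (fatty acid and cholesterol synthesis) to 65.2% (stem cell and Wnt target genes). The genes were listed with earlier results of these data known, so the shares describe the lists and do not test them. The arrays of the lines did not overlap in 32.6% of all names, and in all 292 called members, which is a property of the call.

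**Figure D1:**
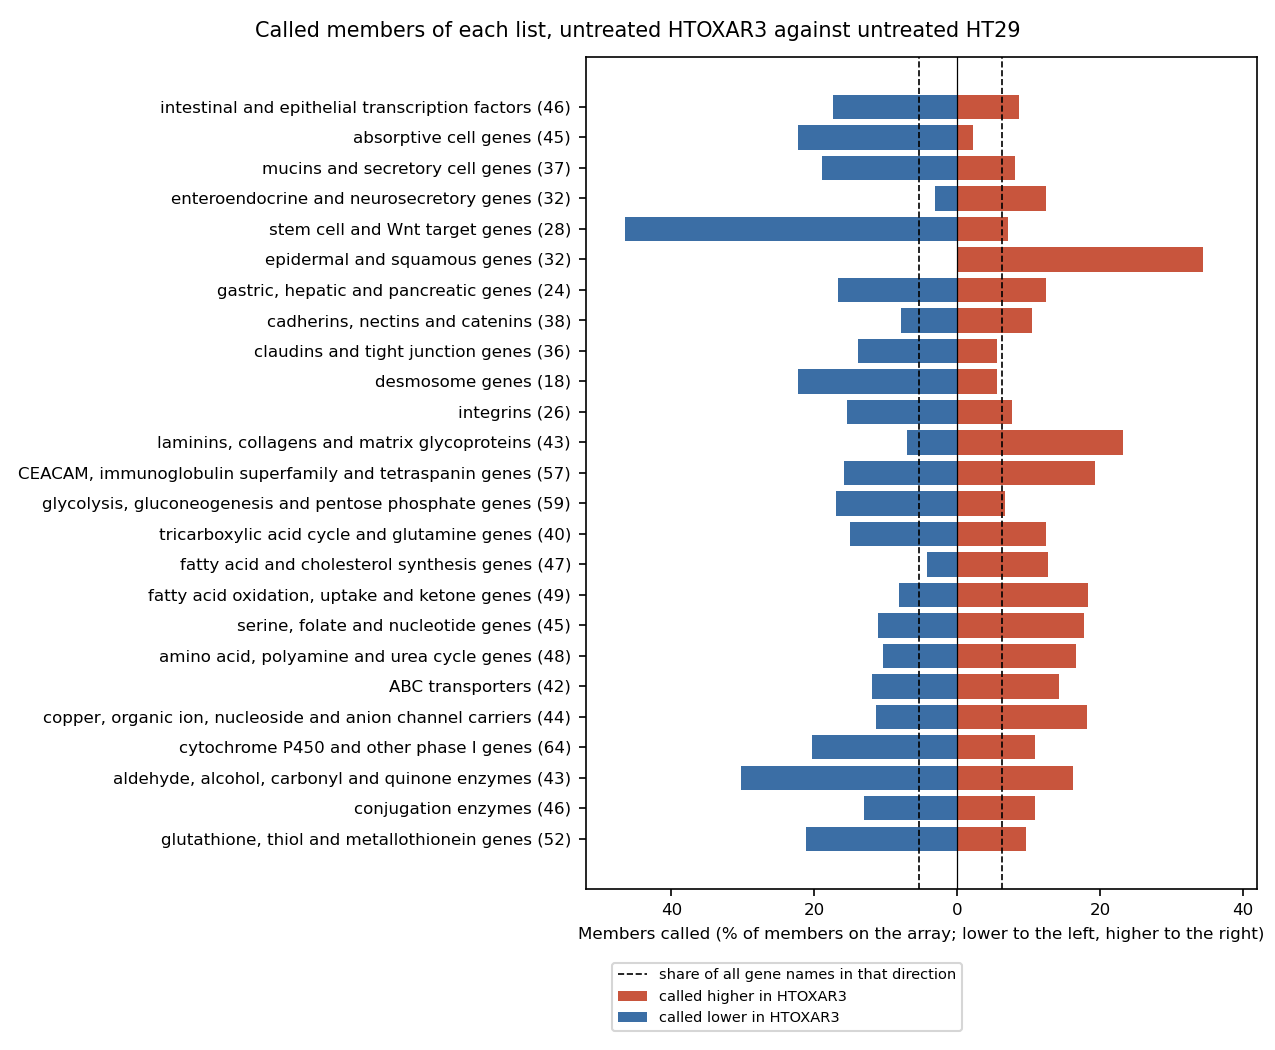
Percent of the members of each list that were called, lower in HTOXAR3 to the left in blue and higher to the right in red, with the number of members on the array in brackets. Dashed lines mark the share of all gene names called in each direction (5.28% lower, 6.26% higher), and the longest bars are those of stem cell and Wnt target genes (13 of 28 lower) and epidermal genes (11 of 32 higher).

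The labelled cell type was checked on marker genes, and most epithelial markers were bright in both lines. Of 12 markers of colon carcinoma epithelium, 11 were well above background on all 3 arrays of at least 1 line. In HTOXAR3, GPA33 was well above background on 2 arrays, CDX2 on 1 and CDH17 on 0. EPCAM, an epithelial surface protein, read 16.37, 16.37 and 16.43 in HT29 and 16.21, 16.21 and 16.18 in HTOXAR3, and CDH1, the epithelial cadherin, 13.31, 13.41 and 13.38 and 13.33, 13.36 and 13.31. Neither was called, and nor were the simple keratins KRT8, KRT18, KRT19 and KRT20. The mean of the 12 markers lay between 12.13 and 12.28 in HT29 and between 11.44 and 11.58 in HTOXAR3, with LGALS4, VIL1 and CDH17 called lower. Of 7 fibroblast markers none was well above background on all 3 arrays of either line, and none was called. Among the markers of other cells, the endothelial receptor TEK was called higher (2.17 ± 0.18, SE), as was the leukocyte integrin chain ITGAM (1.07 ± 0.08), and none of the erythroid markers was called. The TEK difference ran from 1.05 to 2.96 over the settings tried. PECAM1, KDR and CLDN5 were not well above background on all arrays of either line, while the other 3 endothelial markers were. So were all 6 leukocyte and all 3 erythroid markers on the array. CDH5 averaged 7.09 in HT29 and 7.08 in HTOXAR3, CD14 11.14 and 11.48, and CD79A 11.38 and 11.28. The markers of other cells were thus not all dim, and what these probes detect was not tested. In RNA of whole cultures, fewer cells that make a transcript and less of it per cell cannot be told apart.

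To show the sequences next to genes that differed strongly between the lines, the 250 bases before the transcription start of 4 genes are given from RefSeq on GRCh38.p14, 5′ to 3′ on the strand of the gene. TM4SF4 and TM4SF18 lie in the same stretch of chromosome 3, with TM4SF1 between them, and moved in opposite directions. SPINK1 is a secretory gene that fell, and IVL is an epidermal gene that rose. Capitals mark the letters TATAAA, where a core promoter can bind the general initiation factors, wherever they were found on either strand.
TM4SF4, chr3:149474447-149474696, plus strand: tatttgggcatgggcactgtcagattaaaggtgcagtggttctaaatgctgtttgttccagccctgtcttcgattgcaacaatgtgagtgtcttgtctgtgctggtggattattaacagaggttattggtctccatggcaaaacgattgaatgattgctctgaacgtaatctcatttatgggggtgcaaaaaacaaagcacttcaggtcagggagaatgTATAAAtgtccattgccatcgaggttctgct
TM4SF18, chr3:149333637-149333886, minus strand: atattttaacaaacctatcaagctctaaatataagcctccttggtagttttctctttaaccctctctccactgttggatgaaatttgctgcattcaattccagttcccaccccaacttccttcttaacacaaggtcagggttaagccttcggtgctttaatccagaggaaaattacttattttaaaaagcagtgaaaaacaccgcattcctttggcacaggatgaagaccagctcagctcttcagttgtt
SPINK1, chr5:147831672-147831921, minus strand: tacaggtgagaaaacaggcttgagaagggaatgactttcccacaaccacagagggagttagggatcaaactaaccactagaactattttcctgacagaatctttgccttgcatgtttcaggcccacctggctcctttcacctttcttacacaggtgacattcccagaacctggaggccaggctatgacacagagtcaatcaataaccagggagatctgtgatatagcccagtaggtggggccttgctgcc
IVL, chr1:152908296-152908545, plus strand: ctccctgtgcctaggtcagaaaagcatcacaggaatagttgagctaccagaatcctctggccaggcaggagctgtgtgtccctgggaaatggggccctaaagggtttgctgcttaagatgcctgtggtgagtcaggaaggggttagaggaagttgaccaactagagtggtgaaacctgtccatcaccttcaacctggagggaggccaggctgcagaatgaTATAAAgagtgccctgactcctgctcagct
The TATAAA of TM4SF4 began 31 bases and that of IVL 30 bases before the start, and 3763 of the 35116 promoter windows of this length in the table held these letters. TM4SF18 and SPINK1 did not hold them. The windows held 4 CG dinucleotides in TM4SF4, 2 in TM4SF18 and 0 in SPINK1 and IVL, against a median of 11 over all windows. These are descriptions of letters and not binding sites.

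Of 46 transcription factors of the intestine and epithelia 12 were called, 8 lower and 4 higher in HTOXAR3, and the other 34 were not called. FOXA3, a forkhead factor of gut and liver, read 7.3, 7.41 and 7.71 in HT29 against 6.13, 6.12 and 6.2 in HTOXAR3, 2.5-fold lower (-1.32 ± 0.1, SE, n = 3 per line, adjusted p = 3.21e-06). GATA6, a zinc finger factor of the intestinal epithelium, read 11.83, 11.86 and 11.79 against 10.59, 10.52 and 10.58 (-1.26 ± 0.05, adjusted p = 2.39e-09). The HTOXAR3 arrays lay below every HT29 array for both.

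The factors that rose were fewer. TBX3, a T-box repressor, differed by 0.83 ± 0.07, and GFI1, a repressor that acts in secretory cells, by 0.91 ± 0.17, a call that was lost with slide as a block and when any 1 of 4 arrays was left out. CDX2, the caudal-type factor of intestinal identity, read 8.0, 6.67 and 6.64 in HT29 and 4.17, 6.62 and 4.01 in HTOXAR3. HTOXAR3 replicate 2 lay next to HT29 replicates 2 and 3 while the other HTOXAR3 arrays lay far lower, and the difference of -2.17 ± 0.56 was not called (adjusted p = 0.142). HNF4A (-0.59 ± 0.17) and SOX9 (-0.08 ± 0.1) were not called, and ATOH1, the factor of secretory cells, was not well above background on any of the 6 arrays.

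Genes of the absorptive cell were lower almost without exception among those called, 10 of 45 lower and 1 higher. LGALS4, a galectin of the apical membrane, read 14.92, 14.99 and 14.99 in HT29 and 12.96, 12.85 and 12.85 in HTOXAR3, a difference of -2.08 ± 0.07 (4.22-fold, adjusted p = 1.24e-09). SLC5A1, the sodium-glucose cotransporter of the brush border, read 8.78, 8.8 and 8.8 against 6.71, 7.02 and 6.78 (-1.95 ± 0.17). USH1C, a scaffold that links microvilli, read 11.11, 11.1 and 11.27 against 9.32, 9.22 and 9.33 (-1.87 ± 0.1). All 3 fell by more than 3-fold with no overlap of arrays. VIL1, the actin bundler villin, fell by 1.61 on the log2 scale. CDH17, the intestinal cadherin, was well above background on 2 HT29 arrays (4.94, 4.7 and 5.25) and not well above it on any HTOXAR3 array (3.45, 2.87 and 3.91), at least 1.4-fold lower. The one gene that rose was SLC9A2, a sodium-proton exchanger (0.88 ± 0.09). KRT20, a keratin of mature colon cells, was not called, at 13.49, 13.38 and 13.45 in HT29 and 13.53, 13.32 and 13.41 in HTOXAR3.

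Of 37 secretory genes 7 were called lower and 3 higher. SPINK4, a peptide of goblet cells, read 9.8, 9.89 and 10.15 in HT29 and 5.36, 4.25 and 4.68 in HTOXAR3, where it was well above background on 1 array, and differed by -5.18 ± 0.3 (adjusted p = 1.95e-07, -5.9 to -3.72 over the settings tried). SPINK1, a trypsin inhibitor whose promoter is printed above, read 13.43, 13.38 and 13.48 against 10.47, 10.26 and 10.24, 8.61-fold lower. TFF3, the trefoil peptide of goblet cells, read 11.49, 11.53 and 11.32 against 8.66, 8.35 and 8.39 (-2.98 ± 0.13), and its other probes differed by -2.39 and -0.84. In each the lowest HT29 array stood well above the highest HTOXAR3 array. WFDC2, a secreted protease inhibitor of glandular and carcinoma cells also known as HE4, went the other way, from 8.02, 7.84 and 7.89 to 11.64, 11.55 and 11.62, 12.9-fold higher (adjusted p = 2.03e-11). PLA2G2A, a secreted phospholipase of Paneth cells, rose by 1.49 ± 0.11 and TFF2, a trefoil peptide of the stomach, by 0.96 ± 0.08. PLA2G2A was well above background on only 1 HT29 array, and its difference ran from 0.74 to 2.01 over the settings tried. MUC2, the gel-forming mucin of the colon, read 7.84, 7.42 and 7.86 in HT29 and 7.33, 7.14 and 7.43 in HTOXAR3 and was not called (adjusted p = 0.493).

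Hormone-cell genes were called in 5 of 32 (15.6%, against 11.5% of all names), 4 of them higher. CCK, the hormone cholecystokinin, read 7.05, 7.43 and 7.12 in HT29 and 8.97, 8.73 and 8.74 in HTOXAR3 (1.62 ± 0.11), and ENO2, the neuronal enolase, 6.94, 6.97 and 7.36 and 8.28, 8.36 and 8.3 (1.23 ± 0.09). CRYBA2, a crystallin gene, differed by 0.38 ± 0.08 with an adjusted p of 0.0434, and that call was lost under several other settings. The gene that fell was DDC, the decarboxylase of serotonin and dopamine synthesis (-6.03 ± 0.14). Among gastric, hepatic and pancreatic genes 4 of 24 were lower and 3 higher. AMBP, a plasma protein precursor made in liver, differed by -2.48 ± 0.12 and CELA3A, a pancreatic elastase, by -1.37 ± 0.15, whereas SERPINA1, the elastase inhibitor alpha-1-antitrypsin, read 11.5, 11.46 and 11.42 in HT29 and 12.88, 12.93 and 12.96 in HTOXAR3 (1.46 ± 0.08).

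Stem cell and Wnt target genes were called in the largest share of any list, 15 of 28 (53.6%), 13 lower and 2 higher, with a median difference of -0.51 over all 28 against -0.03 over all names. ASCL2, the Wnt-driven master factor of intestinal stem cells, read 12.03, 11.95 and 12.02 in HT29 and 8.65, 8.54 and 8.72 in HTOXAR3, 10.3-fold lower (-3.37 ± 0.11, adjusted p = 3.02e-10). LRIG1, a brake on growth factor receptors, read 10.24, 10.17 and 10.15 against 8.63, 8.71 and 8.73, and PROM1, the surface antigen CD133, 8.07, 7.99 and 8.38 against 6.86, 6.51 and 6.77. LGR5, the R-spondin receptor that marks crypt base cells, read 7.25, 6.86 and 7.16 against 5.79, 5.88 and 5.67 (-1.31 ± 0.17, adjusted p = 0.00046). The 4 fell together, by 2.48-fold to 10.3-fold. EPHB2, an ephrin receptor that is also a Wnt target of the crypt, went against them, from 7.45, 7.06 and 7.52 to 9.2, 9.24 and 9.21 (1.87 ± 0.18, adjusted p = 3.96e-05), as did TCF7, a Wnt effector (0.43 ± 0.07).

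Of 32 epidermal and squamous genes 11 (34.4%) were called, 11 higher and 0 lower, and the other 21 were not called. IVL, the involucrin of the cornified envelope, was not well above background on any HT29 array (4.12, 4.33 and 4.59) and read 8.6, 8.48 and 8.53 in HTOXAR3, at least 16.7-fold higher (adjusted p = 2.14e-10). DMKN, a secreted protein of the epidermis called dermokine, read 5.53, 5.05 and 5.08 against 13.33, 13.2 and 13.24, and its other probes rose by 5.84 and 3.22. KRT13, a keratin of mucosal squamous epithelium, read 10.27, 10.35 and 10.25 against 12.53, 12.53 and 12.47 (2.22 ± 0.08). These 3 had no overlap between lines. KRT14, the keratin of basal keratinocytes, rose from 6.49, 6.6 and 6.63 to 7.83, 7.78 and 7.9 (1.26 ± 0.14). The keratinocyte genes TP63, KRT5, DSG3 and KRT1 were not well above background on any of the 6 arrays, so 4 of the 6 keratinocyte markers were dim in both lines.

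**Figure D2:**
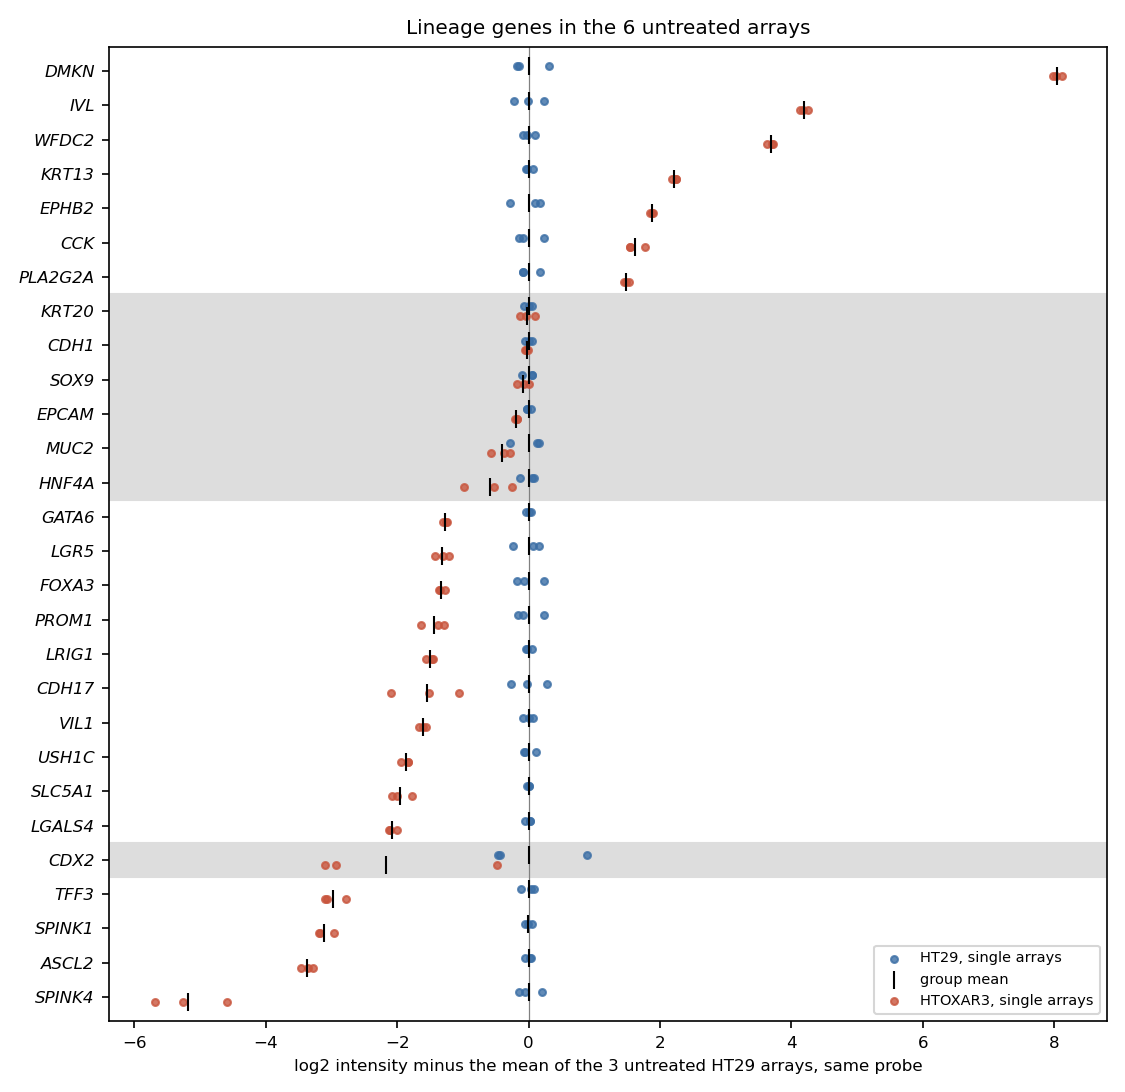
Log2 intensity of named lineage genes on each of the 6 untreated arrays, as the difference from the mean of the 3 HT29 arrays for the same probe. Blue points are HT29 arrays, red points HTOXAR3 arrays and black bars group means, and genes on grey were not called. SPINK4, ASCL2 and SPINK1 lie far to the left and DMKN, IVL and WFDC2 far to the right, while KRT20, CDH1 and SOX9 lie at 0 and the CDX2 arrays of each line are scattered.

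Of 57 CEACAM, immunoglobulin superfamily and tetraspanin genes 20 (35.1%) were called, 11 higher and 9 lower. TM4SF4, a membrane protein of the intestine and liver, read 14.41, 14.51 and 14.54 in HT29 and 7.76, 7.66 and 7.67 in HTOXAR3, 111-fold lower (-6.8 ± 0.09, adjusted p = 4.26e-14). TM4SF18, a related protein, was not well above background on any HT29 array (4.2, 4.22 and 4.04) and read 9.51, 9.53 and 9.49 in HTOXAR3, at least 36.5-fold higher (adjusted p = 1.26e-13). The 2 probes lie on chromosome 3 of GRCh37, that of TM4SF18 at 149040053 to 149040112 and that of TM4SF4 at 149216588 to 149216647, and the best ungapped alignment of the 2 probes matched 24 of 60 bases.

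In RefSeq order TM4SF1 lies between them and WWTR1 follows TM4SF4, and both were looked up after these values were seen. TM4SF1, a surface antigen of carcinomas, read 15.87, 15.87 and 15.96 in HT29 and 15.35, 15.31 and 15.31 in HTOXAR3 (-0.57 ± 0.06, adjusted p = 0.000128). WWTR1, the Hippo pathway coactivator TAZ, was not well above background in HT29 (3.91, 4.4 and 3.84) and read 6.81, 6.68 and 6.89 in HTOXAR3, at least 6.24-fold higher (adjusted p = 3.51e-06). Along this stretch the order was a gene that rose, a gene that fell by 1.49-fold, a gene that fell by 111-fold and a gene that rose. In the treated arrays the line difference was -0.49 after OXA and -0.39 after OXA plus Curcumin for TM4SF1 and -7.1 and -7.34 for TM4SF4, and TM4SF18 and WWTR1 were called higher after both.

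Other surface molecules moved less. TM4SF5, a tetraspan protein of the gut and liver, differed by -1.83 ± 0.15, and CEACAM6, a carcinoembryonic adhesion molecule, read 8.38, 8.5 and 8.55 in HT29 and 7.01, 6.71 and 7.07 in HTOXAR3 (-1.55 ± 0.12). CEACAM5, the carcinoembryonic antigen itself, read 7.02, 6.6 and 6.53 against 5.35, 5.78 and 5.44. Its arrays did not overlap between lines, yet the difference of -1.2 ± 0.38 was not called (adjusted p = 0.434). After OXA it was 0.76, in the opposite direction and not called, and after OXA plus Curcumin -1.03. MCAM, an adhesion molecule first known from melanoma, rose by 0.93 ± 0.13 between the untreated lines. After treatment its difference was -0.21 (OXA) and -0.16 (OXA plus Curcumin), of the opposite sign and not called. CEACAM3, which belongs to granulocytes, rose by 0.83 ± 0.12.

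Of 43 matrix genes 13 were called, 10 higher and 3 lower. SPP1, the secreted glycoprotein osteopontin, was not well above background on any HT29 array (3.86, 4.07 and 3.91) and read 9.18, 9.0 and 9.09 in HTOXAR3, at least 30.4-fold higher (adjusted p = 2.58e-10). TGFBI, a matrix protein that binds integrins and collagen, read 13.25, 13.15 and 13.32 against 15.42, 15.54 and 15.57, 4.83-fold higher, and COL6A1, a chain of collagen VI, 7.7, 7.64 and 7.23 against 9.55, 9.42 and 9.51. The lines did not overlap for any of the 3. The 3 genes that fell were basement membrane components, the proteoglycans HSPG2 (-0.96 ± 0.09) and AGRN (-0.66 ± 0.09) and the collagen IV chain COL4A2 (-0.64 ± 0.06). After OXA 7 of the 13 called matrix genes were called in the same direction between the lines, and after OXA plus Curcumin 8, against 73.2% and 71.1% of all called names.

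None of 36 claudin and tight junction genes and none of 18 desmosome genes was called with more than a 2-fold change, although 7 (19.4%) and 5 (27.8%) were called. CLDN2, a channel-forming claudin, read 14.96, 14.87 and 14.91 in HT29 and 14.05, 14.04 and 14.13 in HTOXAR3 (-0.84 ± 0.12), and CLDN1, a sealing claudin, differed by -0.62 ± 0.07. OCLN, occludin, rose by 0.43 ± 0.08 and CGNL1, a cingulin-like scaffold, by 0.88 ± 0.16. The OCLN call was lost with its probes averaged, with slide as a block and when any 1 of 3 arrays was left out, and the CGNL1 call when any 1 of 3 arrays was left out. The desmosomal plaque protein DSP differed by -0.4 ± 0.08, a call that was lost when any 1 of 4 arrays was left out, and the hemidesmosomal collagen COL17A1 by -0.79 ± 0.08. Of 38 cadherins, nectins and catenins 7 (18.4%) were called, 4 higher and 3 lower. CDH3, the placental cadherin, read 8.68, 8.75 and 8.85 in HT29 and 9.98, 10.19 and 10.12 in HTOXAR3 (1.34 ± 0.11), while CTNND1, the cadherin-bound catenin p120, differed by -0.68 ± 0.06 and AFDN, which ties nectins to actin, by -0.71 ± 0.1. Of 26 integrins 6 (23.1%) were called, 2 higher and 4 lower. The rises were of ITGAM, given above, and of ITGA10, a collagen receptor chain (0.86 ± 0.15), whose call was lost with slide as a block and without replicate 2 of either line. The falls included ITGB4, the hemidesmosome integrin (-0.52 ± 0.06), and ITGA1, another collagen receptor chain (-0.9 ± 0.18), the latter lost when any 1 of 5 arrays was left out.

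Metabolic genes were the programme closest to the background, and the called genes were spread over most pathways. Of 59 genes of glycolysis, gluconeogenesis and the pentose phosphate route 10 were lower and 4 higher. SLC2A10, a glucose transporter, read 7.89, 7.83 and 8.03 in HT29 and 6.16, 6.36 and 6.01 in HTOXAR3 (-1.74 ± 0.1), HKDC1, a hexokinase-like enzyme, 11.03, 10.96 and 11.13 against 9.58, 9.64 and 9.63, and PDK4, a kinase that shuts off pyruvate dehydrogenase, 8.51, 8.56 and 8.77 against 7.62, 7.42 and 7.46. The 3 fell by 3.34-fold, 2.68-fold and 2.16-fold with no overlap of arrays. PFKFB4, a regulator of phosphofructokinase, rose by 1.39 ± 0.24, although HT29 replicate 3 (8.07) lay near the HTOXAR3 arrays (8.53, 8.6 and 8.74) and the other HT29 arrays lay at 6.91 and 6.73. SLC2A12 (1.13 ± 0.17), another glucose transporter, and KHK (0.95 ± 0.08), the fructose kinase, were also higher.

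Among 40 genes of the citric acid cycle and glutamine use 5 were higher and 6 lower. GPT, the alanine aminotransferase of the cytosol, read 8.21, 8.28 and 8.25 in HT29 and 4.78, 4.49 and 4.49 in HTOXAR3, where it was well above background on 1 array (-3.66 ± 0.09, adjusted p = 2.82e-11). It was lower under every setting tried, by -4.19 to -2.25, and the size depends on the background correction. The isocitrate dehydrogenases IDH2 (-0.94 ± 0.11) and IDH1 (-0.62 ± 0.07) were lower as well. SUCLA2, a subunit of succinyl-CoA ligase, read 9.44, 9.55 and 9.69 against 10.66, 10.73 and 10.74 (1.15 ± 0.09), and ME3, the mitochondrial malic enzyme, rose by 0.74 ± 0.07. DLST, of the oxoglutarate dehydrogenase complex, differed by 0.79 ± 0.16, but by 1.09 within the slide of HT29 replicate 2 and 0.22 within that of HT29 replicate 3, and its call was lost with slide as a block and when any 1 of 4 arrays was left out.

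Fatty acid oxidation genes were called in 13 of 49, 9 of them higher. ACADSB, the dehydrogenase of short branched acyl-CoA, read 8.25, 8.16 and 8.05 in HT29 and 10.46, 10.37 and 10.37 in HTOXAR3, 4.74-fold higher (adjusted p = 6.36e-09). ECI2, an enoyl-CoA isomerase, read 7.93, 8.03 and 7.98 against 9.42, 9.36 and 9.36 (1.4 ± 0.06), and CPT1B, a carnitine palmitoyltransferase of muscle type, differed by 1.2 ± 0.14. FABP6, the bile acid-binding protein of the ileum, was the largest fall of this list, 7.84, 7.85 and 7.79 against 6.5, 6.45 and 6.24 (-1.43 ± 0.11), followed by the lipid-sensing receptor PPARA (-0.67 ± 0.1). Of 47 fatty acid and cholesterol synthesis genes 8 (17%) were called, 6 higher and 2 lower, and only ELOVL7, an elongase of long fatty acids, by more than 2-fold (1.03 ± 0.07). Among the 42 of them well above background the called share was 19%, against 20.6% of all such names. ACSS1, an acetate-activating enzyme, was lower by its brightest probe (-0.52 ± 0.07), while its second probe differed by 0.29.

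In amino acid metabolism 13 of 48 genes (27.1%) were called, 8 higher and 5 lower. TDO2, the tryptophan dioxygenase that opens the kynurenine route, was not well above background on any HT29 array (3.38, 4.18 and 3.69) and read 6.67, 6.1 and 6.53 in HTOXAR3, at least 5.18-fold higher (adjusted p = 9.81e-06). ASS1 and ASL, successive enzymes of arginine synthesis, were both lower, ASS1 at 9.64, 9.6 and 9.62 in HT29 and 8.13, 8.11 and 8.07 in HTOXAR3 (-1.51 ± 0.1) and ASL by -0.52 ± 0.07. ASNS, asparagine synthetase, differed by -0.55 ± 0.07 between the untreated lines, and by -0.1 and 0.05 after OXA and after OXA plus Curcumin, where it was not called. Serine, folate and nucleotide genes were called in 13 of 45, 8 higher and 5 lower. GGH, which trims folate polyglutamates, read 12.92, 12.8 and 13.02 against 13.95, 13.98 and 14.04 (1.08 ± 0.08), CDA, the cytidine deaminase that inactivates cytidine analogues, rose by 0.91 ± 0.08 and UPP1, uridine phosphorylase, by 0.65 ± 0.08. The folate receptor FOLR1 differed by -0.83 ± 0.12.

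**Figure D3:**
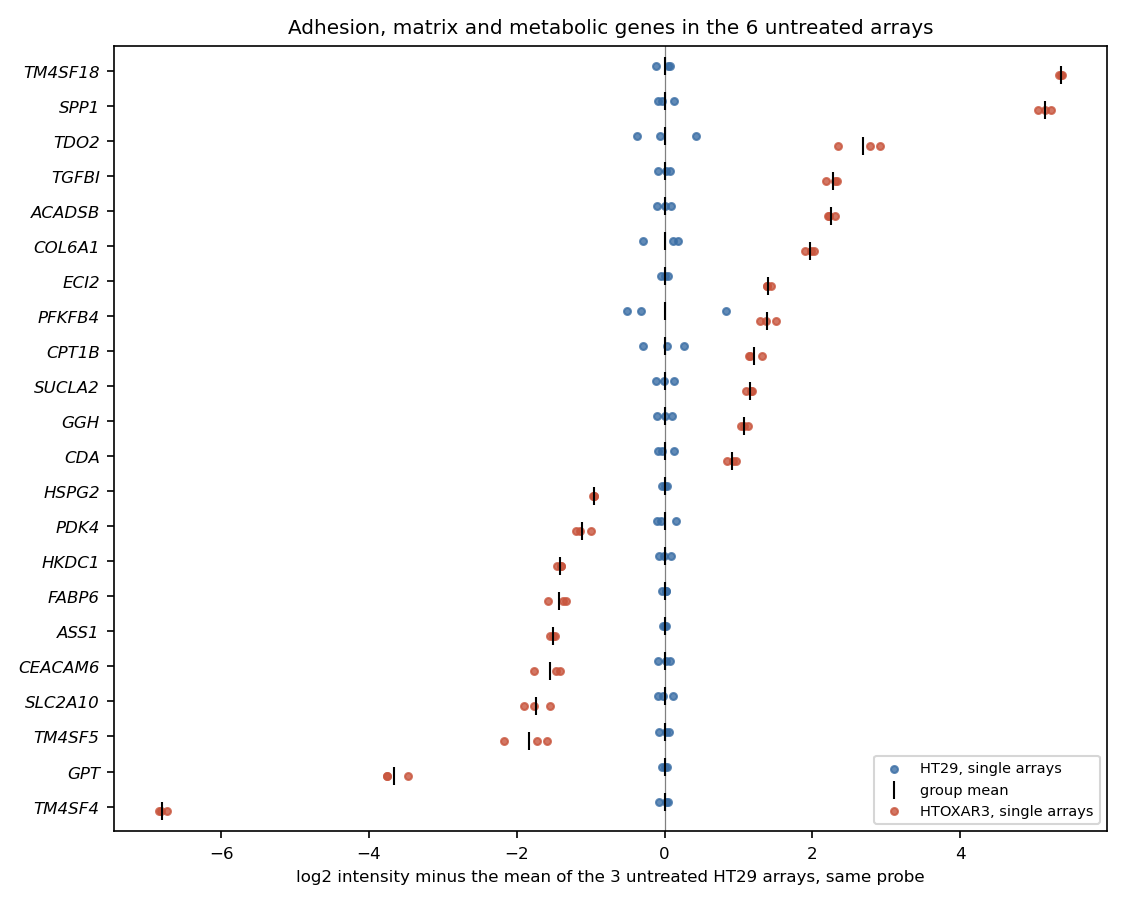
Log2 intensity of named adhesion, matrix and metabolic genes on each of the 6 untreated arrays, as the difference from the HT29 mean of the same probe. Blue points are HT29 arrays, red points HTOXAR3 arrays and black bars group means. TM4SF4 and GPT lie far to the left, TM4SF18 and SPP1 far to the right, and for PFKFB4 the highest HT29 array comes close to the HTOXAR3 arrays.

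Among drug-handling genes the aldehyde, alcohol, carbonyl and quinone enzymes were called most often, 20 of 43 (46.5%), 13 lower and 7 higher. AKR1B10, an aldo-keto reductase of the gut that reduces retinal and other carbonyls, read 14.87, 14.96 and 14.53 in HT29 and 11.98, 11.88 and 11.93 in HTOXAR3, 7.25-fold lower (-2.86 ± 0.1, adjusted p = 9.81e-10). Its paralogue AKR1B15 read 13.8, 13.83 and 13.5 against 10.92, 10.84 and 10.85, and AKR1B1, the aldose reductase, 13.62, 13.67 and 13.4 against 10.79, 10.77 and 10.79. The 3 fell by 6.87-fold to 7.25-fold. Their probes lie on chromosome 7 of GRCh37 and matched each other at no more than 23 of 60 bases. ALDH1L1, a folate dehydrogenase, rose instead, from 6.4, 6.6 and 6.53 to 9.2, 9.32 and 9.3 (6.8-fold), and CBR3, a carbonyl reductase of anthracyclines, by 1.55 ± 0.13.

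Cytochrome P450 and other phase I genes were called in 20 of 64, 13 lower and 7 higher. MAOA, the mitochondrial monoamine oxidase, read 10.76, 10.76 and 10.89 in HT29 and 8.68, 8.49 and 8.41 in HTOXAR3 (-2.27 ± 0.12, adjusted p = 8.18e-08). CYP2C18 and FMO5, oxidases of foreign compounds, were not well above background on any HTOXAR3 array and were at least 2.4-fold and 2.47-fold lower, both calls being lost with the 6 untreated arrays alone and that of FMO5 also with normexp values scaled to the 75th percentile. EPHX2, the soluble epoxide hydrolase, went from 5.3, 5.43 and 5.98 to 7.99, 7.98 and 8.05 (2.44 ± 0.15), and CYP26A1, which breaks down retinoic acid, from 4.72, 4.92 and 5.18 to 6.63, 6.48 and 6.68 (1.66 ± 0.13). Both rose on every HTOXAR3 array.

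Conjugating enzymes were called in 11 of 46 (23.9%), 5 higher and 6 lower. NNMT, which methylates nicotinamide, read 10.86, 10.67 and 10.97 in HT29 and 13.95, 13.95 and 13.89 in HTOXAR3, 8.55-fold higher (3.1 ± 0.13, adjusted p = 5.47e-09). GSTT2, a theta-class glutathione transferase, read 6.71, 6.82 and 6.85 against 8.25, 8.1 and 8.24 (1.4 ± 0.09), and HNMT, which methylates histamine, 8.96, 8.86 and 8.98 against 7.51, 7.51 and 7.39 (-1.46 ± 0.09). The glucuronosyltransferase UGT2B7 differed by -1.6 ± 0.21 and was well above background on 1 HTOXAR3 array, while UGT2B11 (-0.82 ± 0.18) has a probe that matches that of UGT2B10 at 54 of 60 bases, and how far each probe binds the other transcript was not tested. The UGT2B11 call was lost when any 1 of 5 arrays was left out. Both UGT2B calls were lost with their probes averaged and with the 6 untreated arrays alone. They were also lost with normexp values scaled to the 75th percentile in place of quantile normalisation. GSTP1, the pi-class transferase that conjugates platinum drugs, read 18.17, 18.1 and 18.14 in HT29 and 17.95, 17.99 and 17.94 in HTOXAR3. All its HTOXAR3 arrays were lower, yet the difference of -0.18 ± 0.06 was not called (adjusted p = 0.422).

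Glutathione, thiol and metallothionein genes were called in 16 of 52, 11 lower and 5 higher. MT1G, a metal-binding metallothionein, read 7.76, 7.55 and 8.07 in HT29 and 6.48, 6.18 and 6.32 in HTOXAR3 (-1.47 ± 0.16), and MT1M differed by -0.89 ± 0.09. OPLAH, which recycles oxoproline into glutathione synthesis, differed by -0.96 ± 0.09. SOD3, the extracellular superoxide dismutase, rose from 9.02, 8.99 and 8.89 to 10.62, 10.51 and 10.51 (1.57 ± 0.18), HMOX1, haem oxygenase, by 0.69 ± 0.11 and GPX8, a peroxidase of the endoplasmic reticulum, by 0.83 ± 0.12. The calls of MT1G, HMOX1 and GPX8 were lost with the 6 untreated arrays alone. After OXA plus Curcumin 7 of these 16 genes were called in the same direction between the lines, and after OXA 11, against 71.1% and 73.2% of all called names.

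ABC transporters, which pump drugs and their conjugates out of cells, were called in 11 of 42, 6 higher and 5 lower, and 2 by more than 2-fold. ABCB1, the multidrug pump P-glycoprotein, was dim in both lines, 4.82, 4.53 and 4.66 in HT29, where it was well above background on 2 arrays, and 5.59, 5.39 and 5.65 in HTOXAR3. Every HTOXAR3 array was higher, by 0.88 ± 0.11 (adjusted p = 0.000607). The difference ran from 0.36 to 1.4 over the settings tried, and the call was lost with the 6 untreated arrays alone. The calls of ABCB4, ABCG2 and ABCC3, given below, were lost in that setting too. ABCC4, a pump of conjugates and nucleotides, fell from 7.69, 7.7 and 7.83 to 6.66, 6.77 and 6.72 (-1.02 ± 0.09), and ABCB4, the phospholipid pump of bile, from 5.89, 6.21 and 6.34 to 5.18, 5.27 and 4.98 (-1.01 ± 0.17), a call lost without replicate 3 of either line. ABCG2, the breast cancer resistance protein, differed by -0.73 ± 0.11, and ABCC3 by -0.59 ± 0.12, with -0.18 for the second ABCC3 probe. The ABCC3 call was lost when any 1 of the 6 arrays was left out, with slide as a block and with the replicate block. ABCC5 rose by 0.77 ± 0.08, while the least changed of its other probes differed by 0.004. ABCC1 was not called (0.16 ± 0.07). ABCC2, which exports platinum-glutathione conjugates, read 7.24, 6.0 and 4.93 in HT29 and 4.9, 4.92 and 4.87 in HTOXAR3. Its HT29 arrays were spread over more than 2 log2 units, the lowest of them next to HTOXAR3, and the difference was not called (adjusted p = 0.604).

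Carriers of copper, organic ions and nucleosides were called in 13 of 44, 8 higher and 5 lower. SLC31A1, the copper and platinum importer CTR1, read 9.87, 9.85 and 9.9 in HT29 and 9.52, 9.58 and 9.59 in HTOXAR3, a small difference of -0.31 ± 0.06 (1.24-fold lower, adjusted p = 0.0267). The call was lost when any 1 of the 6 arrays was left out and when the probes were averaged, its second probe differing by -0.09. ATP7B, a copper-exporting pump, read 9.04, 8.96 and 9.27 against 9.85, 9.84 and 9.95 (0.79 ± 0.08, adjusted p = 6.16e-05), and the related ATP7A 10.32, 9.96 and 10.11 against 9.93, 9.73 and 9.79, which was not called. SLC29A1, the nucleoside carrier ENT1, rose from 10.81, 10.82 and 10.75 to 11.61, 11.69 and 11.77 (0.9 ± 0.09) and SLC22A4, an organic cation carrier, by 0.91 ± 0.14. SLC47A2, an extruder of organic cations, was well above background on all 3 HT29 arrays (5.55, 6.39 and 5.78) and on no HTOXAR3 array (3.94, 3.71 and 3.74), at least 2.69-fold lower. Its fitted difference ran from -3.6 to -0.79 over the settings tried, and it was not called after OXA. With the 6 untreated arrays alone the calls of SLC31A1, ATP7B, SLC22A4 and SLC47A2 were lost. SLC22A2, SLC22A3 and SLC47A1 were not called, and SLC47A1 was not well above background on any of the 6 arrays.

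Fluoropyrimidines are given with OXA in the clinic, and the enzymes TYMS and DPYD, which set how cells handle them, were not called between the untreated lines. TYMS, the thymidylate synthase that these drugs inhibit, read 14.92, 14.83 and 14.92 in HT29 and 15.14, 15.13 and 15.15 in HTOXAR3. The HTOXAR3 arrays were all higher, and the difference of 0.25 ± 0.06 had an adjusted p of 0.0534. After OXA plus Curcumin it was called higher in HTOXAR3 (0.28). DPYD, which breaks the drugs down, read 5.81, 6.12 and 6.04 against 6.37, 6.34 and 6.39 (0.38 ± 0.15, adjusted p = 1), and after OXA it was called higher in HTOXAR3 (0.78).

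**Figure D4:**
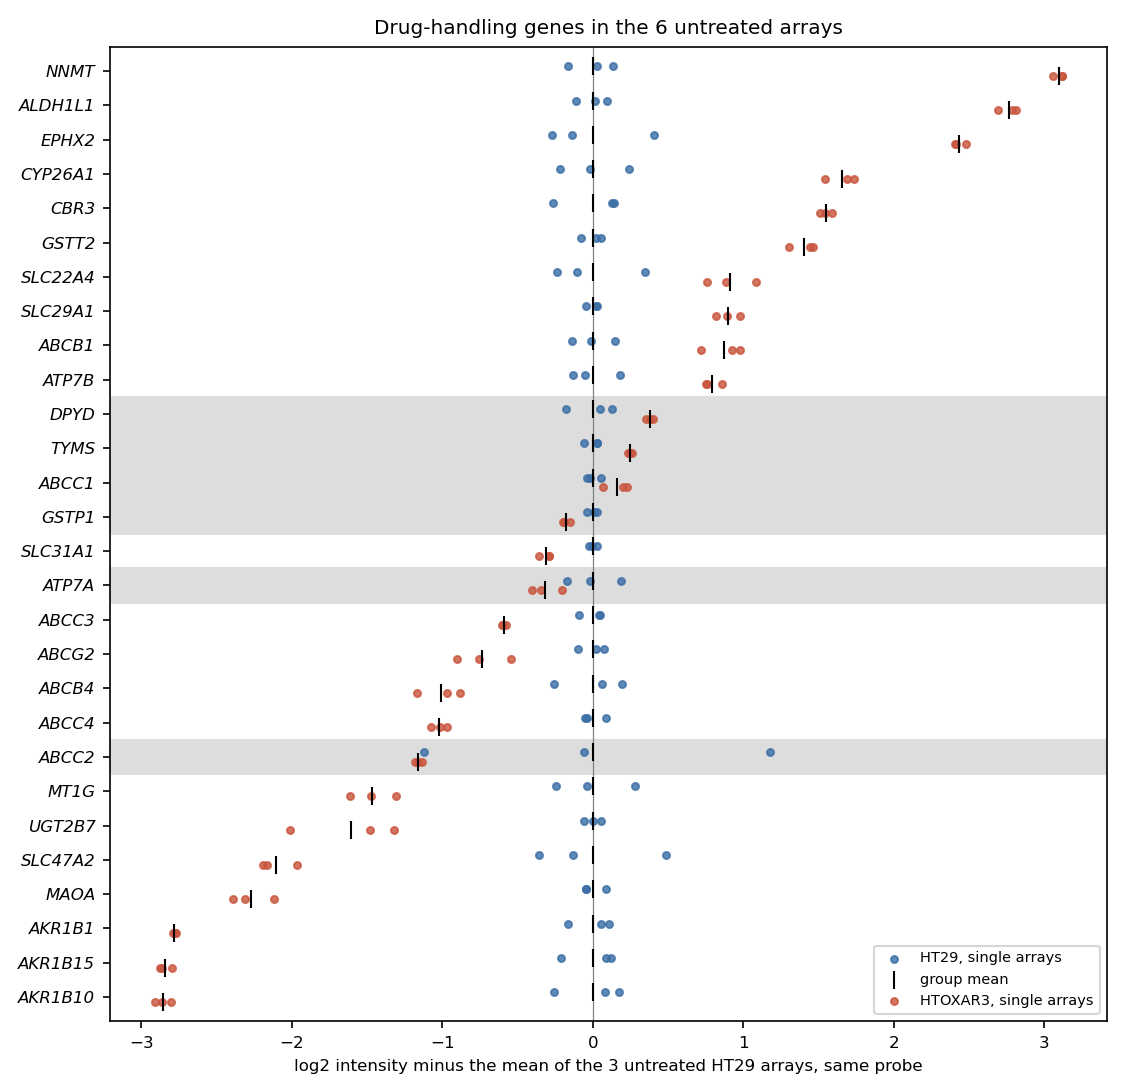
Log2 intensity of named drug-handling genes on each of the 6 untreated arrays, as the difference from the HT29 mean of the same probe. Blue points are HT29 arrays, red points HTOXAR3 arrays and black bars group means, and genes on grey were not called. The AKR1B genes lie near -2.8 and NNMT at 3.1, while ABCC1, GSTP1, TYMS and SLC31A1 lie within 0.4 of HT29 and the HT29 arrays of ABCC2 are widely spread.

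Outside the lists, several of the largest differences were of genes dim in one line. The 10 largest rises over all names included APOBEC3C and APOBEC3F, cytidine deaminases that restrict viruses. APOBEC3C read 3.72, 3.64 and 3.75 in HT29, not well above background, and 9.98, 10.13 and 10.13 in HTOXAR3, at least 64.2-fold higher (adjusted p = 1.69e-14). APOBEC3F was at least 35.5-fold higher, but its probe matches that of APOBEC3C at 50 of 60 bases, and how far each binds the other transcript was not tested. A second APOBEC3F probe differed by 2.58. The family lies in a row on chromosome 22, and the other members were looked up after these values were seen. APOBEC3G was at least 11.8-fold higher (3.85, 3.37 and 3.64 in HT29 and 7.61, 7.66 and 7.64 in HTOXAR3) and APOBEC3B rose by 1.12 ± 0.06, while APOBEC3A, APOBEC3D and APOBEC3H were not called. The APOBEC3B difference was 0.04 after OXA, not called, and 0.31 after OXA plus Curcumin.

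CLEC3A, a C-type lectin (7.89 ± 0.16), and CACNG6, a calcium channel subunit (5.6 ± 0.11), were also among these rises, and KBTBD11, a BTB domain protein (-5.83 ± 0.15), among the largest falls. MVB12B, a subunit of a vesicle sorting complex, read 4.54, 4.72 and 4.95 in HT29 and 10.77, 10.69 and 10.73 in HTOXAR3 and its other probes rose by 3.12 and 1.83. MKRN3, a ubiquitin ligase that acts as a brake on puberty, and CD96, a receptor of lymphocytes, were not well above background in HT29 and at least 37-fold and 28.7-fold higher in HTOXAR3. The fitted CD96 difference of 5.1 was smaller in treated arrays, 3.13 after OXA and 1.32 after OXA plus Curcumin, both called. Among the falls were the insulin-like growth factor binding proteins IGFBP7, at least 23.2-fold lower, and IGFBP2, which read 10.22, 10.16 and 10.34 against 5.52, 5.19 and 5.34 (-4.89 ± 0.1). FGF19, the gut hormone that limits bile acid synthesis, read 10.5, 10.51 and 10.63 against 5.78, 5.82 and 6.0 (25.7-fold lower, adjusted p = 7.21e-09), GRAMD1B, a sterol transfer protein, 10.87, 10.92 and 10.79 against 6.25, 6.42 and 6.39, and ADRA2A, an adrenergic receptor, 9.8, 9.89 and 9.83 against 5.24, 5.44 and 5.4. AUTS2 fell from 11.47, 11.52 and 11.57 to 5.58, 5.32 and 5.51 by its brightest probe, but its other probes, of which 1 was well above background on all 6 arrays, differed by -0.07 and -0.07.

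The same lines were compared in the treated arrays, which are other cultures and differ in OXA dose between the lines. Of the 4177 names called in the untreated arrays, 3056 (73.2%) were called in the same direction after OXA and 2969 (71.1%) after OXA plus Curcumin, and 42 were called in the opposite direction in either. In those contrasts 14.1% and 13.9% of all names were called, and of the 32027 names not called between untreated lines 5.55% were called after OXA in the direction of their untreated difference. For the called lineage genes the counts were 58 of 71 (81.7%) and 62 of 71 (87.3%), for adhesion 47 of 58 and 45 of 58, for metabolic genes 58 of 72 and 53 of 72, and for drug-handling genes 71 of 91 and 66 of 91. Of all 292 called members 3 were called the opposite way in either, PPL, PAOX and SLC16A3, the last 2 named after their values were seen. PPL, the plaque protein periplakin, differed by 0.33 ± 0.06 in untreated arrays and by -0.45 after OXA.

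**Figure D5:**
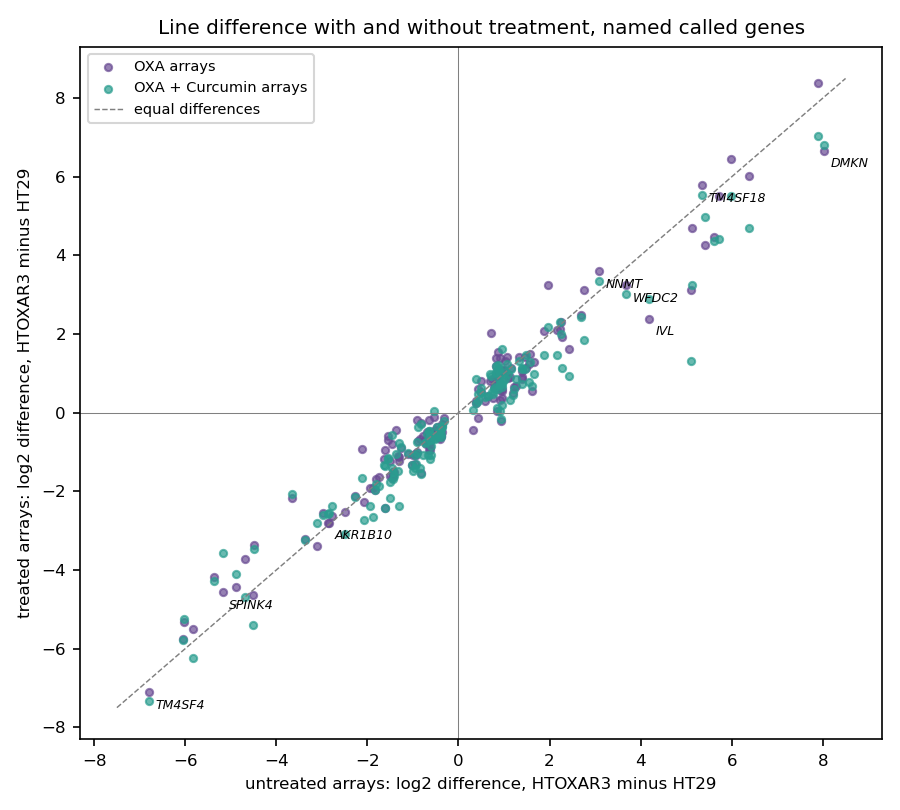
Difference between the lines (HTOXAR3 minus HT29, log2) of the 156 named genes called in untreated arrays, on the horizontal axis, against the same difference in arrays after OXA (purple) and after OXA plus Curcumin (green), on the vertical axis. The dashed line marks equal differences. Of the 156 genes 153 had the same sign after OXA and 154 after OXA plus Curcumin, and TM4SF4, TM4SF18 and NNMT lie near the dashed line. Differences of probes dim in 1 line are drawn as fitted.

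The DMKN difference was 8.04 in untreated arrays, 6.66 after OXA and 6.81 after OXA plus Curcumin, and that of DDC -6.03, -5.33 and -5.26. The ASCL2 difference was -3.2 after OXA and -3.24 after OXA plus Curcumin, that of WFDC2 3.25 and 3.03 and that of SPINK1 -3.4 and -2.8. IVL, dim in HT29, was called higher after both treatments. Among drug-handling genes AKR1B10 was at -2.8 and -2.58 and NNMT at 3.6 and 3.35. The ABCB1 difference was 1.1 and 1.07, that of ATP7B 0.65 and 0.6, and that of SLC31A1 -0.13 and -0.21, which was not called in either. Among metabolic genes CDA (0.32 and 0.04) and CPT1B (0.51 and 0.46) were not called in either as well.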

How the data were processed

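RNA of both lines had been labelled and hybridised to 1-colour Agilent human v2 arrays, and the deposited scanner files give raw intensity values for each spot, with probe positions on GRCh37. The authors also deposited a table of processed log2 values, used here only as an alternative. Per the labels the authors' tools include limma.

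The mean intensity of each spot was corrected with normexp (offset 0) on the local background median and quantile normalised over 18 arrays in limma 3.58.1 (R 4.3.3). Control spots were dropped after the correction, spots flagged as outliers were set aside, spots of a probe were averaged, and the probe with the highest mean stood for each of 36204 gene names, of which 13606 kept the name on the array and the others were matched to RefSeq. limma was fitted on all 18 arrays with 6 group terms, p-values were adjusted by Benjamini-Yekutieli over all names, and calls needed an adjusted p below 0.05 and a fold above 1.2. The scripts were tested on simulated data.

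The comparison and the gene lists were chosen with earlier results of these data known. Genes to name were chosen as up to 3 called rises and 3 called falls for each list, and 10 of each over all names, all well above background on the 3 arrays of the higher line, together with the cell type markers and a set of transporters, drug targets and lineage genes named whatever their result. A gene chosen outside this rule is stated as such. Replicates are those of the labels. Their number limits the precision, and no spot of the 6 arrays was saturated. AKR1C2, LYZ and several UGT1A genes are not analysed here, since no array name matched them. Some genes so chosen are not reported here one by one, though the counts include them.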

Additional observations from a re-analysis of the deposited data

How the results depend on the processing

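The count of names called stayed within 1.5 times of 4177 with an offset of 50 (4620), the processed signal scaled to its 75th percentile (4364), normexp scaled to that percentile (4025), slide as a block (4047) and the deposited table (4276). With the 6 untreated arrays alone 1258 names were called, 726 higher and 532 lower. Higher members were then 18 for lineage, 11 for adhesion, 13 for metabolism and 9 for drug handling, and lower members 11 for adhesion, 11 for metabolism and 20 for drug handling. With Benjamini-Hochberg adjustment 2961 names were called lower. With a fold minimum of 2, 1013 were called (628 higher, 385 lower), with higher and lower members of 17 and 25 for lineage, 9 and 4 for adhesion, 11 and 7 for metabolism and 8 and 25 for drug handling.

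Leaving out 1 array gave 3317 calls (without HTOXAR3 replicate 2) to 3545 (without HT29 replicate 3), 1824 to 1983 higher and 1476 to 1562 lower. Higher members ranged over 24 to 26 for lineage, 25 to 30 for adhesion, 29 to 40 for metabolism and 31 to 35 for drug handling, and lower members over 39 to 42, 22 to 26, 24 to 30 and 43 to 47.

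Arrays with the same replicate number share only that number in the labels. Deviations of same-numbered arrays from their group means correlated at -0.06, -0.02 and -0.005, and the replicate block gave 4151 calls, of which 3956 were among the 4177. Signs turned in uncalled markers near 0. With normexp scaled to the 75th percentile ALAS2 read 0.0385, CD3E 0.011, CDH5 0.0298 and PTPRC 0.0274, and with slide as a block ALAS2 read 0.0562. Leaving out 1 array gave -0.263 to 0.101 for ALAS2, -0.063 to 0.0654 for CDH5, -0.0979 to 0.0392 for PTPRC and -0.079 to 0.0284 for KRT20. Of the 185 genes followed under each setting, 65 lost their call with the 6 arrays alone and 70 with a fold minimum of 2. Outside the drug-handling genes, losses with the 6 arrays alone included TEK, TFF2, TCF7, CELA3A, MCAM, CEACAM3, TM4SF1, CLDN1, ITGB4, AGRN and AFDN. Metabolic genes that lost it included IDH1, ME3, PFKFB4, SLC2A12, CPT1B, PPARA, ASL, ASNS, UPP1 and FOLR1. Differences of probes dim in 1 line depend on the background offset, that of WWTR1 running from 1.27 to 4.26. The causes were not tested.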
